A study of Mus musculus with 12 samples.

Results

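The 6 input libraries of whole brain white matter, 3 from mice on a high-fat diet (HFD) and 3 from mice on a control-fat diet (CFD), were taken by their labels from a series of 12 RNA-sequencing libraries. The other 6 libraries hold RNA from ribosome pulldowns of the same animals and enter only 2 alternative fits. Chow with 60% of kcal from fat was given to animals 516, 517 and 676, and chow with 10% of kcal from fat to animals 489, 555 and 556. Diet-induced obesity (DIO) was produced by free feeding, all mice of the study were male, and the age of these animals and their time on the diet are not given in the labels.

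All 6 animals, CFD controls included, carried the genotype Tie2-Cre:Rpl22-HA, in which Cre driven by the promoter of the endothelial receptor gene Tie2 (mouse symbol Tek) adds a hemagglutinin tag to the ribosomal protein Rpl22. Both parent lines are kept on B6 backgrounds. Since Tie2 is also active in part of the blood cell lineage, the tag is not restricted to endothelium, but an input library is made before the pulldown and holds RNA of every cell of the sample. Each library comes from 1 animal, so that the spread within a diet joins differences between animals, dissections and libraries.

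White matter consists mainly of axons, the myelin that oligodendrocytes wrap around them, oligodendrocyte progenitor cells (OPCs), astrocytes, microglia and small vessels. Neuronal cell bodies lie in grey matter, and few neuronal mRNAs are carried far into axons, so that levels of neuronal transcripts bear on what a dissected sample contains. The study asked how DIO changes this tissue, and the input libraries answer it for the whole sample rather than for its endothelia.

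The inputs held 19567186 to 27222491 counts per library, and between 13337 and 16427 genes had at least 1 count. Values are given below in the fixed order of animals 489, 555 and 556 for CFD and 516, 517 and 676 for HFD. Levels are CPM, counts relative to the library size after TMM scaling (an adjustment for differences in composition). Profiles of log2 CPM correlated between libraries of 1 diet at 0.768 to 0.844 (median 0.818) and between diets at 0.784 to 0.85 (median 0.807). The 3 HFD pairs, at 0.834 to 0.844, lay above the 3 CFD pairs, at 0.768 to 0.802. The CFD input of animal 555 had the lowest median correlation with the others, 0.784. It also held 1432 tested genes at 3 counts or fewer, against 88 to 648 in the other libraries. The HFD input of animal 676 had the fewest such genes, 88, and the most genes detected. Thinned to a common depth of 16782750 counts without Rn45s, the expected number of genes was 14511, 13165 and 14117 in CFD and 14574, 14309 and 16365 in HFD (two-sided exact permutation p = 0.2, where 0.1 is the smallest that 3 against 3 allow). Y-linked Ddx3y had 415 to 1492 counts in every input, while Xist, normally silent in males, reached 133 counts in animal 676 and at most 7 elsewhere.

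The marker lists showed a sample rich in neuronal transcripts. The 14 pan-neuronal genes summed to 14426, 19838 and 17716 CPM in CFD and 16339, 16324 and 11972 CPM in HFD, all HFD values but that of animal 676 lying within the CFD range. The 24 genes of myelinating oligodendrocytes summed to 6594, 8532 and 7428 CPM in CFD and 6842, 7449.7 and 4847 CPM in HFD. On levels per gene length, the pan-neuronal sum was 2.54 to 2.93 times the myelin sum in each of the 6 libraries, although lists of different genes do not give a ratio of cells. Astrocyte genes (15) summed to 5976, 6903 and 7408 CPM in CFD and 5134, 4993 and 5218 CPM in HFD. Of these 3 sums, that of the astrocyte list separated the diets, with all HFD inputs below all CFD inputs. The pan-neuronal sum did so only when its largest member, Snap25, was left out. Myelin, astrocyte and OPC genes of white matter were present in every library, but abundant transcripts of neuronal cell bodies were too, so that the markers do not show white matter alone. In RNA of a whole sample, fewer cells of a type and less RNA per cell cannot be told apart.

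**Figure D1:**
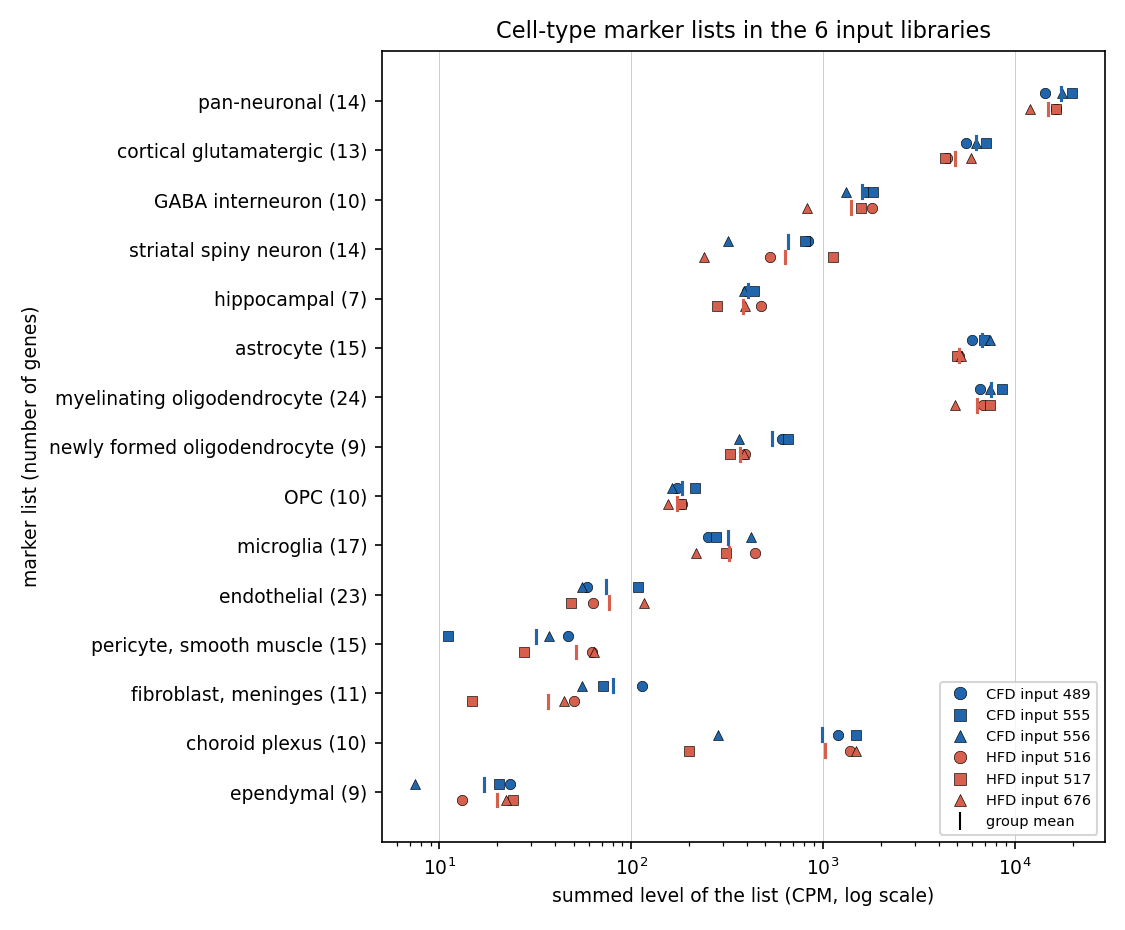
Summed level of 15 cell-type marker lists (CPM, log axis) in each of the 6 input libraries, with the number of genes of each list in parentheses. Blue symbols are CFD inputs, red symbols HFD inputs, each shape 1 animal of a diet, and vertical bars the group means. Neuronal, astrocyte and myelin lists lie at the right, endothelial and pericyte lists at the left, and the choroid plexus and striatal lists spread widely within both diets.

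Neuronal transcripts included markers of several forebrain regions. The 13 cortical glutamatergic genes summed to 5559.7, 7053 and 6279.7 CPM in CFD and 4455, 4345 and 5904 CPM in HFD. Among them, Camk2a, a kinase of excitatory synapses, took 3553, 4636 and 4081 CPM in CFD and 2600.4, 2531 and 4066 CPM in HFD. Slc17a7, the vesicular glutamate transporter of cortical neurons, was at 524, 365 and 467 CPM in CFD and 252, 235 and 609 CPM in HFD. Neither gene separated the diets. Of the 13 cortical genes, 3 (23.1%) were below in all HFD inputs. That compares with 4.54% of all genes and 8.05% of the 2682 most abundant, which hold 8 of the 13. Gad2, which makes GABA and marks inhibitory neurons, stood at 1157, 1178 and 879 CPM in CFD and 1309, 1046 and 491 CPM in HFD, lowest in animal 676.

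Some marker lists differed between animals far more than between diets. The 14 genes of striatal spiny neurons summed to 833, 809.9 and 321 CPM in CFD and 529.5, 1127 and 240.1 CPM in HFD, a range of 4.7 times, with the lowest values in animals 556 and 676 and the highest in animal 517. The choroid plexus list (10 genes) summed to 1201, 1492 and 282 CPM in CFD and 1385, 199.8 and 1488 CPM in HFD. Animals 556 and 517, one of each diet, were low. Most of this list was Ttr, the thyroxine carrier secreted by choroid plexus, with 1046, 1299.8 and 243 CPM in CFD and 1222, 138 and 1331 CPM in HFD. Choroid plexus lies in the ventricles and striatum beneath the corpus callosum. The part of the dissected region in these differences was not tested.

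Vascular, lymphocyte, neutrophil and globin genes gave few counts, while microglial genes were clearly detected. The 23 endothelial genes together reached 59, 108 and 55.5 CPM in CFD and 63, 48.4 and 117 CPM in HFD, and the pan-neuronal list was 108 to 324 times as high per gene length in the same library. Of these 23 genes, 18 had 3 counts or fewer in at least 1 library. Cldn5, the tight junction claudin of brain endothelium, had 0, 0 and 0 counts in CFD and 50, 22 and 30 counts in HFD. Tek itself had 4, 3 and 0 and 13, 0 and 76 counts. The 15 pericyte and smooth muscle genes summed to 46.7, 11.1 and 37.3 CPM in CFD and 62.6, 27.5 and 63.6 CPM in HFD. All 9 lymphocyte genes had 3 counts or fewer in every library, and so had 6 of 9 neutrophil genes. The globin genes Hba-a1, Hba-a2, Hbb-b1, Hbb-b2 and Hbb-bt were also at 3 counts or fewer in every library, a value that is uncertain because near-identical copies share reads. The erythroid list of 10 genes summed to 104, 157 and 89.8 CPM in CFD and 49.3, 83.4 and 68.4 CPM in HFD, without overlap. Bpgm, which makes the 2,3-bisphosphoglycerate of red blood cells, made up 80.8% of that sum, and without it the diets overlapped and the log2 difference went from -0.79 to 0.065. Microglial genes (17) summed to 252, 278 and 423 CPM in CFD and 443, 311 and 218 CPM in HFD, and OPC genes (10) to 172, 214 and 163 CPM in CFD and 184, 181 and 155 CPM in HFD, both with overlapping diets.

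The most abundant genes were ranked by counts per kilobase of gene length, scaled to the same total in every library with Rn45s left out (TPM). Snap25, a component of the presynaptic fusion machinery, had the highest mean in both diets, with 11608, 18002 and 17084 TPM in CFD and 17461, 17175 and 11703 in HFD. Mir6236 lay above it in animal 489 and Malat1 in animal 676. The calmodulin gene Calm2 had 6323, 7673 and 8783 in CFD and 7983, 10029 and 7780.5 in HFD. Among the 15 highest genes were further neuronal ones, namely Vsnl1 and Hpca (calcium sensors) and Camk2a. The iron storage gene Fth1, the glycolytic gene Gapdh, the nuclear RNA Malat1 and the circular RNA host Cdr1 were also among them. Myelin genes were not in this set, although Mbp, myelin basic protein, reached 2465, 2356 and 2096 CPM in CFD and 1671, 1918 and 1864 CPM in HFD. Snap25 and Calm2 were also among the 15 genes with the highest share of counts, a ranking that does not use length.

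**Figure D2:**
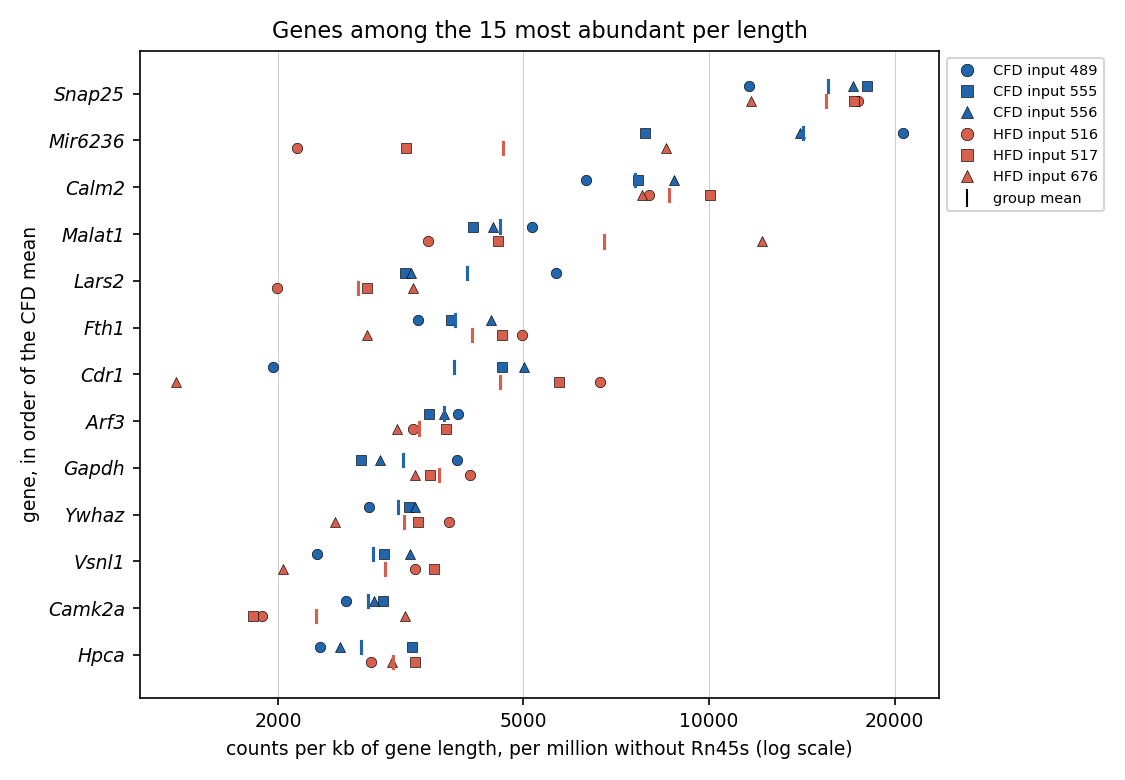
Genes among the 15 most abundant per length, 13 of them shown (counts per kilobase of gene length, scaled to one total without Rn45s, log axis), ordered by the CFD mean. Symbols are single libraries as named in the key and vertical bars group means. Snap25 has the highest mean in both diets, Mir6236 is lowest in the HFD inputs of animals 516 and 517, and the HFD input of animal 676 stands highest for Malat1 and lowest for Cdr1.

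Rn45s, the 45S precursor of ribosomal RNA, was the largest single feature. It took 14.2, 8.6 and 9.8% of all counts in CFD and 6.34, 8.38 and 9.29% in HFD. The mean was 10.9% ± 2.97 (SD, n = 3) in CFD and 8.003% ± 1.51 (SD, n = 3) in HFD, and the exact permutation test over 20 splits gave a two-sided p of 0.2. The share was highest in animal 489 and the diets overlapped. Lars2, whose counts followed those of Rn45s at 3.611 to 4.137 per 100 in each library, was 6089, 3947 and 3659 CPM in CFD and 2152, 3034 and 3284 CPM in HFD.

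Mir6236, a short feature of 123 bases on chromosome 9 at 110281287 to 110281409 (GRCm38, the assembly also called mm10), had the second highest mean per length in CFD and the fourth highest in HFD. Its mature microRNA in RefSeq is printed with the seed, bases 2 to 8, in capitals, because this locus ranked so high in the CFD inputs.
mmu-miR-6236: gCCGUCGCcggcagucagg
A library of this kind counts reads over the whole locus and not the mature microRNA. Mir6236 had 13263, 6994 and 10984 counts in CFD and 2131, 2452 and 6060 counts in HFD, which is 0.476, 0.321 and 0.496 per 100 counts of Rn45s in CFD and 0.123, 0.136 and 0.308 in HFD. In CPM all HFD inputs lay below all CFD inputs, at a log2 fold change of -1.74 (95% interval -2.67 to -0.81, unadjusted p = 0.00126). The ratio to Rn45s was also lower in all HFD inputs, with 0.308 in animal 676 next to 0.321 in animal 555. On the scale per length without Rn45s in the total, animal 676 (8505) lay above animal 555 (7875), so that the separation depended on the scale.

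No gene passed the threshold for a difference between the diets. With edgeR's quasi-likelihood test on the 6 inputs and Benjamini-Hochberg adjustment, 0 of 13411 genes tested had an adjusted p under 0.1 (percent called, 0). The smallest adjusted p was 0.997, so that every gene named below failed the correction and is given as values. At an unadjusted p under 0.05 there were 573 genes (4.27%), 198 (1.48%) higher and 375 (2.8%) lower in HFD. Other tools on the same libraries called 0 (limma voom), 11 (edgeR likelihood ratio test) and 106 genes (DESeq2). The biological coefficient of variation was 78.5%. In 3968 genes (29.6%) the 95% interval of the log2 fold change was narrower than 1 to either side.

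Direction and level were linked. All HFD inputs lay above all CFD inputs for 786 genes (5.86%) and below them for 609 genes (4.54%). In the 2682 genes with the highest level, from 78.7 CPM up, these shares were 2.13% and 8.05%, and 63.6% of the fitted fold changes were below 0. In the 2683 genes with the lowest level, up to 4.98 CPM, they were 10.4% and 1.9%. Of these, 1867 had at least 1 library at 3 counts or fewer. With library totals in place of TMM scaling, the median log2 fold change of all genes moved from -0.015 to 0.14, and the genes at an unadjusted p under 0.05 became 340 higher and 205 lower.

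**Figure D3:**
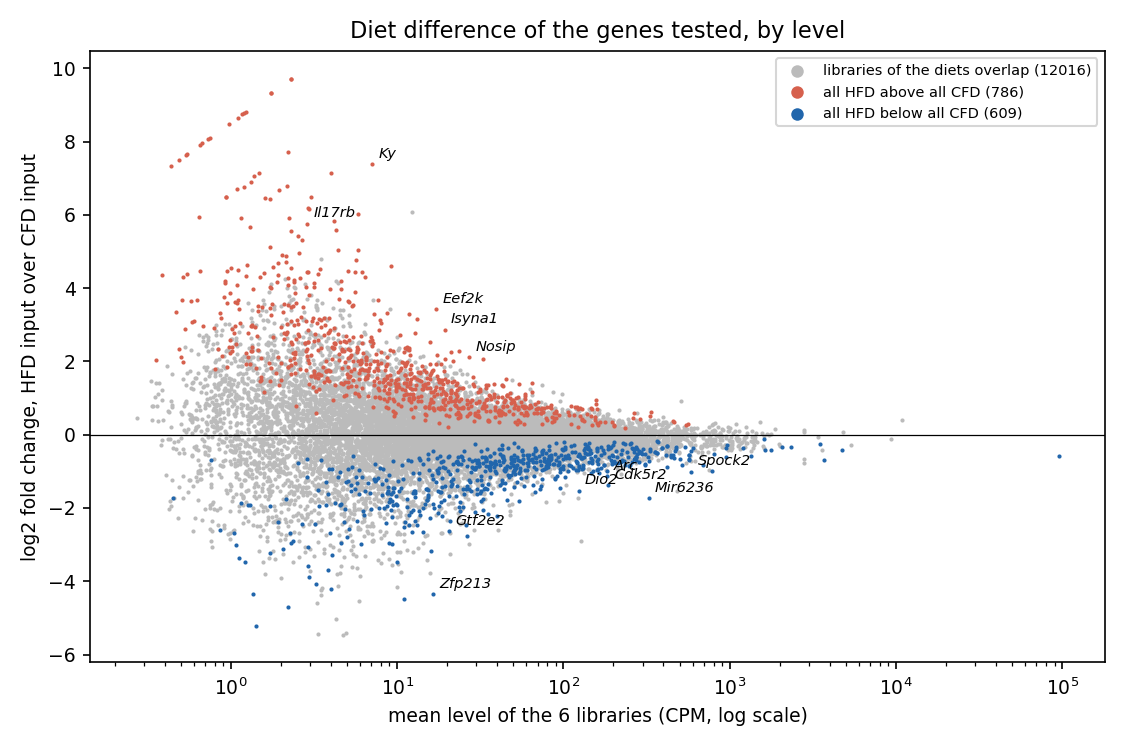
Log2 fold change of HFD over CFD inputs against the mean level (CPM, log axis) for the 13411 genes tested. Grey points are genes whose libraries overlap between the diets, red points the 786 genes with all HFD inputs above all CFD inputs, blue points the 609 genes with all below. Red points crowd at low levels and blue points at high levels, and no gene passed the adjusted threshold.

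The 12 genes lower and the 12 genes higher in HFD that had the smallest unadjusted p, among genes without overlap and with a mean of at least 1 CPM, differed in level. Those lower in HFD were mostly well expressed. Cdk5r2 encodes p39, a neuronal activator of the kinase Cdk5, and lies on chromosome 1 at 74855029 to 74857732. It was at 220.2, 328 and 255 CPM in CFD and 90.3, 106 and 115 CPM in HFD, with a log2 fold change of -1.37 (95% interval -1.97 to -0.77, unadjusted p = 0.000237, the smallest of all genes). Groups without overlap were required by the choice of these genes, and here the lowest CFD value was well above the highest HFD value. Dio2, on chromosome 12 at 90724552 to 90739038, encodes the deiodinase that makes active thyroid hormone and is expressed by astrocytes. Dio2 was at 128, 172 and 249 CPM in CFD and 73.1, 52.7 and 64.9 CPM in HFD, with a log2 fold change of -1.53 (95% interval -2.24 to -0.81). Spock2, an extracellular proteoglycan of brain, was at 724, 982 and 657 CPM in CFD and 347, 386 and 440.0 CPM in HFD. Rilpl1, a Rab-binding protein of the lysosomal and ciliary system, was at 103, 136 and 65.4 CPM in CFD and 36.4, 33.1 and 33.4 CPM in HFD. In neither did the groups overlap, which the choice of these genes required.

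Lower in HFD at more modest levels were Gtf2e2, a subunit of the general transcription factor TFIIE, with 44.7, 25.7 and 35.5 CPM in CFD and 5.9, 4.26 and 6.92 CPM in HFD, and Ccdc106, with 48, 25.9 and 29.9 CPM and 5.14, 6.57 and 8.47 CPM. Their fitted log2 fold changes were -2.63 and -2.36. Gabrd, the delta subunit of extrasynaptic GABA-A receptors, was at 23.7, 99.5 and 15.1 CPM in CFD and 6.32, 7.2 and 6.92 CPM in HFD, and Zfp213 at 14.1, 72.6 and 7.56 CPM in CFD and 0.345, 0.951 and 3.31 CPM in HFD. For both, the CFD input of animal 555 was several times above the other CFD inputs. Without it the log2 fold changes were -1.51 for Gabrd and -2.82 for Zfp213, against -2.76 and -4.36 with all animals. The 24 genes also held 2810004N23Rik, lower, and 9530091C08Rik, higher in HFD.

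Those higher in HFD were genes of low level in CFD. Eef2k is the kinase that slows translation elongation by phosphorylating elongation factor 2, on chromosome 7 at 120842642 to 120907219. Eef2k had 82, 51 and 48 counts in CFD and 852, 703 and 757 counts in HFD, or 4.36, 2.23 and 2.17 CPM against 29.4, 31.8 and 33.4 CPM. Its values were tight within each diet, 10.8 times apart in the means, and gave a log2 fold change of 3.43 (95% interval 1.90 to 4.96, unadjusted p = 0.000279). Nosip, a protein that binds nitric oxide synthase, was at 8.77, 14.7 and 6.84 CPM in CFD and 60.1, 36 and 36 CPM in HFD. Gpatch2 was at 8.24, 5.52 and 8.24 CPM in CFD and 36.6, 42.7 and 25.5 CPM in HFD. Isyna1, the enzyme that makes inositol phosphate from glucose 6-phosphate, was at 3.45, 5.87 and 4.66 CPM in CFD and 70.7, 11.4 and 20.2 CPM in HFD, where animal 516 was far above the others. Without animal 516 the log2 fold change of Isyna1 was 1.75, against 2.87 with all animals.

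In 48 of 17700 genes with any count (0.271%), every CFD input had at most 3 counts and every HFD input at least 10, and in 0 genes was it the reverse. Ky, a muscle peptidase gene, had 2, 3 and 0 counts in CFD and 137, 768 and 58 in HFD, a ratio of pooled scaled counts of 166 (95% counting interval 71.1 to 514). Animal 517 held 768 of the 963 HFD counts, and without it the ratio of Ky was 48.1 (20.3 to 150), while leaving out single CFD animals moved it between 109 and 267. Wnk4, a kinase that controls ion transport, had 3, 0 and 0 counts in CFD and 230, 154 and 202 in HFD, a ratio of 169 (57.5 to 821), or 108 and 110 without animals 555 and 556, and against 0 CFD counts without animal 489. Tnfrsf1b, the second receptor of tumor necrosis factor, had 0, 0 and 1 counts in CFD and 111, 82 and 129 in HFD, a ratio of 278 (49.6 to 11000) that rested on a single CFD count. For the mitochondrial enzyme gene Gcat the ratio was 101 (39.2 to 372). These counting intervals do not cover the spread between animals. Fitted 95% intervals of the log2 fold change do, and were 3.80 to 10.95 for Ky and 3.06 to 11.2 for Wnk4. Those of Tnfrsf1b and Gcat were 3.11 to 12.3 and 2.64 to 10.3. Gm19897 and Klhl35 had 0 counts in every CFD input and were at least 32.4-fold and at least 32.3-fold higher in HFD against a floor of 3 counts per library. Gm19897 had 16, 208 and 87 counts in HFD and Klhl35 had 24, 248 and 39, most of them in animal 517, and without that animal the bounds were 15.4-fold and 8.96-fold. That every HFD input lay above every CFD input in each of these genes follows from the rule that chose them. Rwdd3, a promoter of SUMO conjugation, had 2, 1 and 8 counts in CFD and 498, 162 and 228 in HFD. Beside these genes stands the completeness of the libraries: tested genes at 3 counts or fewer numbered 560, 1432 and 648 in CFD and 415, 558 and 88 in HFD. All HFD inputs lay below all CFD inputs, at a two-sided exact permutation p of 0.1, the smallest that 3 against 3 allow. The part of this difference in the 48 genes was not tested.

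Immediate early genes, which neurons transcribe within minutes of activity without need of new protein, were lower on average in HFD. Of 20 genes 19 were tested, and 15 of these had a fold change below 0, against 50.9% of all genes tested. The median log2 fold change was -0.72, against -0.015 for all genes. With library totals alone it was -0.58, and leaving out single animals it stayed between -0.85 and -0.55, with 11 to 16 of 19 below 0. The list summed to 1699.7, 1817 and 2334 CPM in CFD and 1087, 1434 and 1120.2 CPM in HFD, without overlap. In 5 of 19 members (26.3%) all HFD inputs were below all CFD inputs, against 4.54% of all genes and 8.05% of the 2682 most abundant. None passed the adjusted threshold.

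Arc, a regulator of synaptic AMPA receptors, on chromosome 15 at 74669081 to 74672570, had the smallest p of the list. Arc was at 209.8, 256 and 290.2 CPM in CFD and 105, 108 and 131 CPM in HFD, with a log2 fold change of -1.14 (95% interval -1.72 to -0.55, unadjusted p = 0.000965). The lowest CFD value was above every HFD value. Of the orphan nuclear receptors, Nr4a1 was at 93.8, 86.3 and 101 CPM in CFD and 39.9, 53.8 and 63.4 CPM in HFD, and Nr4a2 at 117, 159 and 174 CPM in CFD and 58.2, 91.1 and 90.5 CPM in HFD. Fosb, a partner of Jun in the AP-1 transcription factor, was at 35.6, 34.6 and 42.1 CPM in CFD and 21.3, 10.1 and 23.6 CPM in HFD. The zinc finger gene Egr4 was at 25, 32.4 and 27.1 CPM in CFD and 9.29, 10.6 and 12.3 CPM in HFD. In these 4 genes too the diets did not overlap, with animal 516 or 517 lowest.

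Not every member followed. Egr1, the most abundant member per gene length, was at 633, 725 and 942 CPM in CFD and 402, 683 and 311 CPM in HFD, where animal 517 lay among the CFD values. Fos was at 72.3, 19 and 18.1 CPM in CFD and 18.7, 10.1 and 19.6 CPM in HFD, its CFD mean resting on animal 489. Egr3, which controls genes of synaptic plasticity, was at 150.5, 156 and 199 CPM in CFD and 141, 188 and 155 CPM in HFD, with overlap. Ier2 was the single member with all HFD inputs above, at 3, 5 and 8 counts in CFD and 15, 174 and 120 in HFD.

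Of the 5 members with all HFD inputs below all CFD inputs, 4 had a promoter in the set of sequences used, and Arc had none. The 4 promoters are shown because activity reaches several immediate early genes through CREB, which binds the cAMP response element. Each run covers 250 bases before to 50 after the start of the gene (GRCm38.p6), in the gene's own direction, and capitals mark the half-site TGACG on either strand (TGACG or CGTCA), where neighbouring matches may overlap. They lie at chr2:57123954-57124253 (minus strand, Nr4a2), chr6:85513540-85513839 (minus strand, Egr4), chr7:19309996-19310295 (minus strand, Fosb) and chr15:101266596-101266895 (plus strand, Nr4a1).
Nr4a2: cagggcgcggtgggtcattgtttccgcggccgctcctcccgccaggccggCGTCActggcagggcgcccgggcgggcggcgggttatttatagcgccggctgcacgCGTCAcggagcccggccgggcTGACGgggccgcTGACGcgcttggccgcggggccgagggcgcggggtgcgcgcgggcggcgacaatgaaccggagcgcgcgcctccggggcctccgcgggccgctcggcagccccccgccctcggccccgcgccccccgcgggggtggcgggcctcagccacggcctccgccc
Egr4: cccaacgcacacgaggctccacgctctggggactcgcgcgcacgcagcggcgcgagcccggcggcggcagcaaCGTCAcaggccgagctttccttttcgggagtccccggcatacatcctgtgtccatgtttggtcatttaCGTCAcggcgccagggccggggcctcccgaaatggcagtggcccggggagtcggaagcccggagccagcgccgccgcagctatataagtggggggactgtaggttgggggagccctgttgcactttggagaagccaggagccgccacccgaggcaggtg
Fosb: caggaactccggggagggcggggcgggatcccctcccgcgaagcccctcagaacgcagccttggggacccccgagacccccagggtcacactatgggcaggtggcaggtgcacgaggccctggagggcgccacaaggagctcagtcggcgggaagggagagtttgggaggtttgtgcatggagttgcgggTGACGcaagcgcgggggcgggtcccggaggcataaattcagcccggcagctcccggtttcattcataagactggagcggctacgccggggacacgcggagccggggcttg
Nr4a1: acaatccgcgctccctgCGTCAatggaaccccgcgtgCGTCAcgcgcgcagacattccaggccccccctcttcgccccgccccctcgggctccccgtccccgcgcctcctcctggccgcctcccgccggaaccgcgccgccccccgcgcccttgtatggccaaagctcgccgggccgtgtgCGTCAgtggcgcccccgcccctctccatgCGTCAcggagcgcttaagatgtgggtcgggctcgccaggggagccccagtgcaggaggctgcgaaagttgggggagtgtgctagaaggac
The half-site occurred 4 times in Nr4a2, 2 times in Egr4, 1 time in Fosb and 4 times in Nr4a1. Of 32851 mouse promoters of this length, where a gene may have several, 20.8% held it. Of the 20 immediate early genes, promoters of 16 were searched, and 14 of these 16 genes held it in at least 1. The other genes of the list were left out of the search, so these counts cover only part of it. Egr1 is not among the 14, which does not show that its promoter lacks the half-site. The share of 20.8% counts single promoters and the 14 of 16 counts genes, so they are not to be set against each other. The whole element TGACGTCA was found in 1.79% of all promoters and in 2 of the 16 genes, Dusp1 and Btg2, which overlapped between the diets. A match describes the letters only and is not a measured site.

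Pan-neuronal genes were lower on average in HFD by a smaller amount. Of the 14 pan-neuronal genes, 13 had a fold change below 0, at a median of -0.26 on the log2 scale. For comparison, 63.6% of the 2682 most abundant genes were below 0. Without animal 676 the number was 8 of 14, and with library totals alone 9 of 14 with a median of -0.10. Syp (synaptophysin of synaptic vesicles), on chromosome X at 7638580 to 7653256, was at 1362, 897 and 861 CPM in CFD and 467, 463 and 648 CPM in HFD, with a log2 fold change of -0.98 (95% interval -1.54 to -0.43). The neurofilament gene Nefm was at 266, 289 and 278 CPM in CFD and 225, 134 and 141 CPM in HFD, and Nefl at 577, 524 and 719 CPM in CFD and 493, 491 and 449.7 CPM in HFD. In these and in Syn1 and Thy1 the diets did not overlap, 5 of 14 genes (35.7%), 13 of the list being among the 2682 most abundant genes, where 8.05% were so. Snap25 overlapped, at a log2 fold change of -0.13 (95% interval -0.65 to 0.40).

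Genes of the node of Ranvier and of axonal transport were all on one side. All 12 had a fold change below 0 with a median of -0.40, 11 of them being among the 2682 most abundant genes, where 63.6% were below 0. Of the list, 0 of 12 were without overlap, against 10.4% of all genes tested. When single animals were left out, 9 to 12 of 12 stayed below 0. With library totals the median was -0.24 with 10 of 12 below 0. Their sum was 7155, 9624 and 8152 CPM in CFD and 5728, 6336 and 5395 CPM in HFD, without overlap. Kif5a, the neuronal kinesin heavy chain, was at 2185, 4629 and 3752 CPM in CFD and 2304, 2596 and 1259 CPM in HFD and gave the largest share of that sum. Scn8a, the sodium channel of mature nodes, was at 711, 802 and 566 CPM in CFD and 266, 448 and 672 CPM in HFD, where animal 676 lay within the CFD range. Kcna2, the potassium channel beside the node, was at 556, 594 and 394 CPM in CFD and 360.4, 405 and 286 CPM in HFD, where animal 517 lay just above the lowest CFD value.

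Among the cell type lists, the sums of the astrocyte, fibroblast and meninges, and erythroid lists did not overlap between the diets, all lower in HFD. Without their largest members, Snap25 and Camk2a, the pan-neuronal and cortical glutamatergic sums were also lower in all HFD inputs. Their log2 differences were then -0.35 and -0.26. The list of perivascular and meningeal macrophages went the other way without Lyve1, with all HFD inputs above. Each of its 7 genes had 3 counts or fewer in at least 1 library. The astrocyte sum differed by -0.40 on the log2 scale, and 11 of 15 members had a fold change below 0, with a median of -0.38. The sum was carried by Slc1a2, the main glutamate transporter of astrocytes, which made up 79.7% of it. Slc1a2 was at 4731, 5538 and 6016 CPM in CFD and 3947, 3968 and 4189.5 CPM in HFD. Without Slc1a2 the summed difference was -0.31 and the diets still did not overlap, and with library totals it was -0.24, again without overlap. Slc1a3, the second such transporter, was at 298, 307 and 239 CPM in CFD and 179, 224 and 204 CPM in HFD. Aldh1l1, a folate enzyme used as an astrocyte marker, was at 21.9, 61.5 and 33.5 CPM in CFD and 13.3, 14 and 20.4 CPM in HFD. Slc1a2, Slc1a3 and Aldh1l1 did not overlap (3 of 15, 20%, against 4.54% of all genes and 8.05% of the 2682 most abundant, which hold 5 of the 15). Gfap was at 115, 92.4 and 156 CPM in CFD and 89.3, 101 and 102 CPM in HFD and Aqp4 at 72.9, 75.8 and 94.6 CPM in CFD and 124, 68.5 and 78 CPM in HFD, both with overlap.

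Myelin genes had a median near 0 as a list. Of 24 genes of myelinating oligodendrocytes, 14 had a fold change below 0 and the median was -0.070, which became 0.079 with library totals alone. Leaving out single animals gave 0.072 without animal 676, 0.018 without 555, -0.12 without 489, -0.14 without 556, -0.19 without 517 and -0.20 without 516. Mbp was lower in all HFD than in all CFD inputs, with a 95% interval of the log2 fold change of -0.77 to 0.086. Cnp, a myelin enzyme, was at 201, 223 and 241 CPM in CFD and 397, 409 and 203 CPM in HFD, with animal 676 within the CFD range. Sirt2, a deacetylase of myelin, was at 264, 283 and 224 CPM in CFD and 197, 133 and 119.7 CPM in HFD without overlap. Bcas1, which marks oligodendrocytes that are forming myelin, was at 362, 357 and 251 CPM in CFD and 156, 182 and 209 CPM in HFD, with a log2 fold change of -0.82 (95% interval -1.40 to -0.25). Enpp6, another marker of that stage, was higher in all HFD inputs, 6.8, 1.53 and 7.74 CPM in CFD and 13.4, 34.1 and 8.51 CPM in HFD.

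The study measured OPC, premyelinating and myelinating oligodendrocyte genes in other animals with a probe panel, and the same genes were read here. Of 35 OPC panel genes tested, 22 had a fold change below 0, of 38 premyelinating genes 24, and of 37 myelinating genes 27, against 50.9% of all genes and 63.6% of the 2682 most abundant, which hold 6, 19 and 13 of them. The sums of the 3 panels were lower in all HFD inputs, but each overlapped with library totals alone. The median log2 fold changes were -0.23, -0.16 and -0.23, so that the first 2 did not share the direction of the paper's panel result. With library totals the OPC and myelinating medians were -0.092 and -0.073 and 19 of 38 premyelinating genes were below 0, and without animal 676 the myelinating panel had 20 of 37 genes below 0. Several panel genes are also expressed by neurons, and Gria3 and Grin3a, subunits of glutamate receptors, are such genes. Gria3 was at 518, 639 and 458 CPM in CFD and 278, 336 and 458 CPM in HFD, where the lowest CFD and the highest HFD value are the same after rounding. Grin3a was at 41.3, 95.7 and 52.7 CPM in CFD and 26.4, 23.2 and 27.1 CPM in HFD, without overlap. Pdgfra, the defining receptor of OPCs, was at 31.5, 18.1 and 25.3 CPM in CFD and 28.3, 28.3 and 27.6 CPM in HFD.

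**Figure D4:**
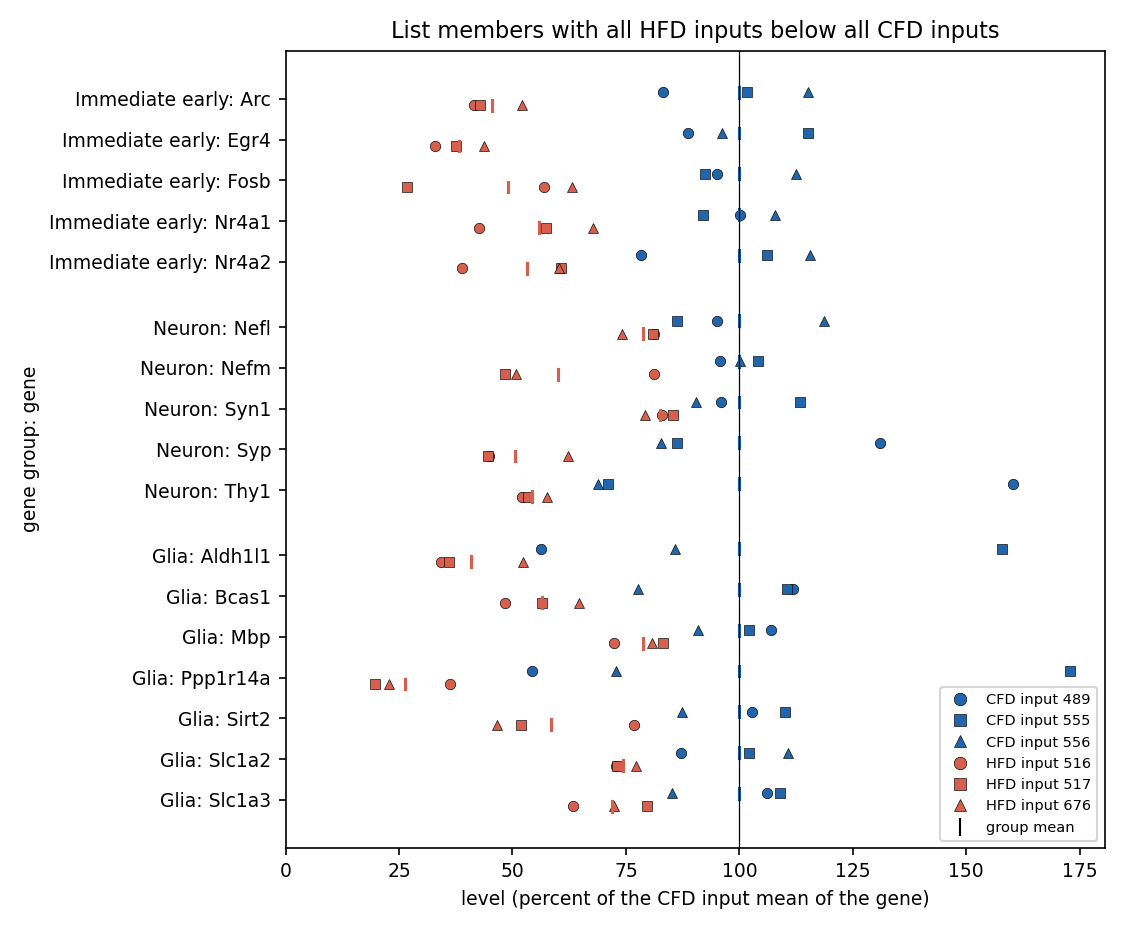
Level of each gene in each input library as a percent of the gene's CFD mean, for members of the immediate early, pan-neuronal, astrocyte and oligodendrocyte lists chosen because all HFD inputs lay below all CFD inputs. Symbols are libraries as in the key, vertical bars group means, and the line marks 100%. The HFD inputs of Arc lie at 105 to 131 CPM against a CFD mean of 252 CPM, while for Thy1, Aldh1l1 and Ppp1r14a 1 CFD input each stands far to the right.

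Endothelial genes gave low counts and wide intervals. Of 17 endothelial genes tested, 10 had a fold change above 0 and the median was 0.086, or -0.54 without animal 676 and 1.39 without animal 489. Cldn5, Emcn and Itm2a were higher in all HFD inputs (3 of 17, 17.6%, against 10.4% of the 2683 least abundant genes, which hold 11 of the 17). Emcn, an endothelial sialomucin, had 0, 1 and 0 counts in CFD and 60, 40 and 59 in HFD. The ratio of 137 (95% counting interval 24.3 to 5460, without the spread between animals) rested on a single CFD count. Flt1, a receptor of vascular endothelial growth factor, had 6, 6 and 10 counts in CFD and 0, 0 and 333 in HFD, nearly all in animal 676. Tie1 had 0, 2 and 49 counts in CFD and 0, 8 and 0 in HFD. Of the microglial genes, Trem2, a lipid-sensing receptor, had 3, 0 and 5 counts in CFD and 229, 128 and 47 in HFD, while Csf1r, the survival receptor of microglia, was at 56.1, 29.2 and 102 CPM in CFD and 52.9, 60.1 and 34.9 CPM in HFD. The median over 17 microglial genes was -0.065. Dcn, the decorin of fibroblasts and meninges, was at 31.7, 23.5 and 29.6 CPM in CFD and 1.9, 4.8 and 15.3 CPM in HFD without overlap. The fibroblast and meninges list of 11 summed to 114, 71.1 and 55.7 CPM in CFD and 50.3, 14.7 and 44.8 CPM in HFD. Without Dcn that sum overlapped, and the median log2 fold change of the list, -0.41, ranged from -1.33 without animal 516 to 0.052 without animal 489.

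The IL-17 receptor gene that the study followed in endothelium was also read here. Il17rb, on chromosome 14 at 29996168 to 30008896, had 4, 1 and 1 counts in CFD and 118, 87 and 203 counts in HFD, or 0.213, 0.0438 and 0.0453 CPM against 4.07, 3.94 and 8.95 CPM. The log2 fold change was 5.76 (95% interval 1.96 to 9.55, unadjusted p = 0.00575). The study chose Il17rb from the pulldowns of the same animals, so this is no independent evidence of its direction. Its common partner Il17ra was at 2.5, 7.27 and 2.49 CPM in CFD and 2.59, 2.72 and 5.2 CPM in HFD, and Traf6, a signal adaptor, at 51.2, 68.6 and 20.2 CPM in CFD and 72.3, 74.9 and 69.4 CPM in HFD, the latter without overlap. The ligand genes Il17a, Il17c and Il17f had 0 counts in every input, which for the smallest library allows up to 0.159 CPM. Il17b, the ligand that the study followed, had 9, 0 and 0 counts in CFD and 0, 0 and 10 in HFD and was too low to be tested. The chemokine gene Cxcl5 had 0, 1 and 9 counts in CFD and 0, 6 and 2 in HFD and was too low to be tested. Of 29 genes of the chemokine and chemokine receptor list, 8 were tested. Of these, 0 were lower (against 4.54% of all genes) and 1 (12.5%) higher in all HFD inputs. The latter compares with 5.86% of all genes and 10.4% of the 2683 least abundant, which hold 3 of the 8. The higher gene, Cxcr5, a receptor of B cells, had 4, 0 and 9 counts in CFD and 24, 26 and 11 in HFD. Cx3cl1, the neuronal chemokine that binds the microglial receptor Cx3cr1, was the most abundant of that list per gene length, at 295, 208 and 286 CPM in CFD and 164, 236 and 233 CPM in HFD.

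Most single genes of lipid and insulin pathways overlapped between the diets. Cholesterol synthesis genes split 13 above and 10 below 0, with a median log2 fold change of 0.080. Of 13 fatty acid synthesis genes, 11 had a fold change below 0, with a median of -0.14 that became 0.0056 with library totals. Their sum was 2731, 2343 and 2288 CPM in CFD and 2266, 2053 and 1876 CPM in HFD, without overlap, also without its largest member Scd2, a stearoyl-CoA desaturase, but with overlap under library totals. Fads1, a desaturase of polyunsaturated fatty acids, was the member without overlap, at 255, 308 and 249 CPM in CFD and 137, 199 and 138 CPM in HFD. Fasn, fatty acid synthase, was at 299, 272 and 244 CPM in CFD and 303, 198 and 205 CPM in HFD. Apoe, the main lipid carrier made by astrocytes, was at 310.5, 245 and 345 CPM in CFD and 244, 217 and 226 CPM in HFD, with the highest HFD value next to the lowest CFD value. Of 17 fatty acid oxidation genes, Etfdh and Acadm, both of the mitochondrial pathway, were above in all HFD inputs (11.8%, against 5.86% of all genes), Etfdh at 11.9, 15.3 and 9.19 CPM in CFD and 25.7, 29 and 25.2 CPM in HFD.

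In the insulin and leptin list, 11 of 15 genes tested had a fold change below 0. Insr, the insulin receptor, was at 69, 24.9 and 29.7 CPM in CFD and 72.9, 66.3 and 124 CPM in HFD, with overlap. Igf1r, the receptor of insulin-like growth factor 1, was at 163, 204 and 145 CPM in CFD and 68.9, 61.8 and 140.3 CPM in HFD, and Igf1 itself at 35.4, 33.2 and 13.1 CPM in CFD and 10.3, 12.6 and 7.32 CPM in HFD, both without overlap. These were the 2 of 15 members (13.3%) below in all HFD inputs, against 4.54% of all genes and 8.05% of the 2682 most abundant, which hold 5 of the 15. In the list of hypoxia and glycolysis genes, Pfkfb3, a stimulator of glycolysis, was at 19.8, 10.3 and 13.9 CPM in CFD and 38.4, 28.8 and 39 CPM in HFD, all HFD above.

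Large lists of mitochondrial and ribosomal genes had medians near 0. The 75 nuclear genes of oxidative phosphorylation had a median log2 fold change of -0.029, with 37 above and 38 below 0, and the 79 ribosomal protein genes a median of 0.061, with 41 above and 38 below. Among the latter, Rpl22, whose locus carries the tag in all animals, was at 23.8, 22.3 and 27.6 CPM in CFD and 51.8, 48.8 and 44.7 CPM in HFD without overlap. Clock genes (18) had a median of -0.13 and 0 without overlap, against 10.4% of all genes tested. Glucocorticoid-responsive genes (13) also had 0 without overlap, against the same 10.4%. Fkbp5 was at 51.8, 38.9 and 36.8 CPM in CFD and 34.6, 44.8 and 44.2 CPM in HFD. Of 18 heat shock and unfolded protein genes, 13 had a fold change below 0, and Hsph1, a chaperone, was at 548, 748 and 743 CPM in CFD and 437, 460.2 and 495 CPM in HFD without overlap.

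Nuclear long noncoding RNAs set 1 library apart. The list of 9 summed to 13635, 10711 and 10610.2 CPM in CFD and 7826, 10337 and 28385 CPM in HFD. The value of animal 676 was above all others, and the median log2 fold change of 0.46 with all animals became -0.97 without it. The same library had the most genes detected and the Xist counts given above, and the part of these in the result was not tested. Malat1 was at 10010.1, 9154 and 8939 CPM in CFD and 6809.7, 8875 and 21765 CPM in HFD. Meg3, an imprinted RNA of neurons, was at 2184, 879 and 996 CPM in CFD and 502, 874 and 3763 CPM in HFD, and Snhg11 at 743, 175 and 138 CPM in CFD and 90.6, 197 and 1722 CPM in HFD. For both, the CFD input of animal 489 came second. Kcnq1ot1, an antisense RNA that silences neighbouring genes, was at 106, 5.74 and 14 CPM in CFD and 9.74, 4.89 and 306 CPM in HFD, again highest in animal 676 and then in animal 489. Peg13 was different, at 252, 246 and 262 CPM in CFD and 171, 153 and 176 CPM in HFD, all HFD below all CFD. Cdr1, among the most abundant genes per length, was lowest in animals 489 and 676.

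**Figure D5:**
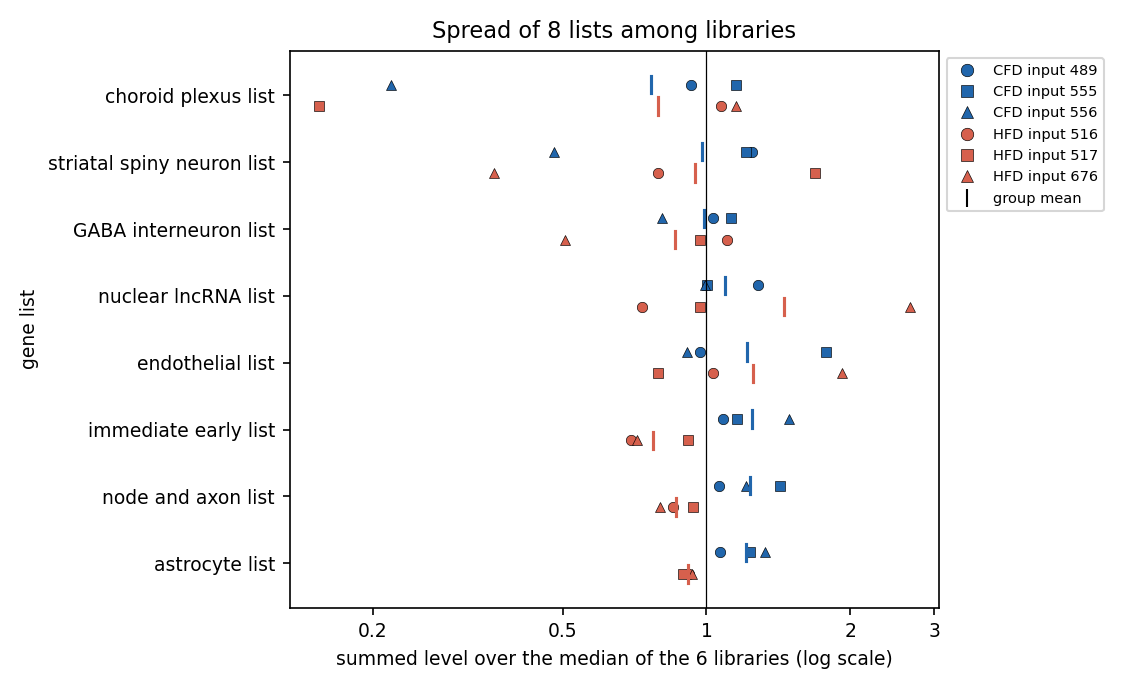
Summed level of 8 gene lists in each input library over the median of the 6 libraries (log axis). Symbols are libraries as in the key and vertical bars group means. The choroid plexus, striatal and nuclear RNA lists are spread within a diet by single animals, whereas the immediate early, node and axon, and astrocyte lists have all HFD inputs to the left of all CFD inputs.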

How the data were processed

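RNA of whole white matter from 6 Tie2-Cre:Rpl22-HA mice was sequenced as input libraries, 3 per diet. The authors deposited read counts per gene, which per the labels' processing notes came from STAR and HTSeq on mm10. Versions, the strand setting and the handling of shared reads are not given in the sources used here, so values of overlapping or near-identical genes are uncertain. The labels name a low-input amplification kit and the study's methods a ribosomal RNA depletion kit. The deposited tables also hold FPKM, used only to recover gene lengths, and the authors' normalized signal, not used. Columns of the authors' own comparisons (log2 fold changes, p-values and adjusted p-values of pulldowns and inputs) were not used.

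Counts of the 6 inputs were tested with edgeR 4.0.16 (R 4.3.3): filterByExpr by group (minimum count 10, minimum total 15), TMM scaling, quasi-likelihood test of 2 group means, Benjamini-Hochberg adjustment over 13411 genes and a threshold of 0.1 as in the study. The procedure was tested on simulated data. CPM use TMM-scaled library sizes. Single values were compared by the exact permutation test over 20 splits. Intervals are 95%. Those of fitted log2 fold changes cover the spread between these samples, and counting intervals (exact, binomial) and floors (3 counts per library) cover counting error only. Libraries hold 19567186 to 27222491 counts. No 2 libraries of a diet agreed within counting noise (chi-square per degree of freedom 118.6 or more).

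The libraries and gene lists were chosen with earlier results of these data known. Named genes are the 12 lower and 12 higher genes with the smallest unadjusted p among non-overlapping genes at 1 CPM or more, the 15 genes highest per length and the 5 features with the most counts, genes called in an alternative, the 2 most abundant members, the 2 with the smallest p and all non-overlapping members of each list, and the study's candidates. A few defining markers and pathway enzymes outside this rule (Aqp4, Egr3, Fkbp5, Flt1, Fos, Gfap, Il17ra, Kcnq1ot1, Pdgfra, Scn8a, Slc17a7, Snhg11 and Tie1) were chosen after their values were seen. Some genes that meet the rule are not reported here. Positions and sequences are from RefSeq on GRCm38.p6, where 41 of 42 symbols matched and Rn45s did not.

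The animal number pairs an input with the pulldown of the same mouse and pairs no input with another. Deviations of such pairs correlated at 0.00305 to 0.177 (consensus 0.0641). Alternatives were the size factors of RLE, testing every gene with a count, edgeR's likelihood ratio test, limma voom 3.58.1, DESeq2 1.42.0, all 12 libraries without and with animal as a block, no Rn45s and Lars2, an adjusted p under 0.05, single animals left out and, for list sums, the top member left out. Scaling by library totals alone was in part, and count ratios without single animals were wholly, chosen after seeing the data.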

Additional observations from a re-analysis of the deposited data

How the results depend on the processing

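The count of genes called was 0 with RLE scaling, library totals alone, limma voom, all 12 libraries, the animal as a replicate block (0 called, 404 at an unadjusted p under 0.05), Rn45s and Lars2 left out, an adjusted p under 0.05, and each animal left out (0 to 0). It was 53 without the filter on low counts, 11 with the edgeR likelihood ratio test and 106 with DESeq2, and the cause of these differences was not tested. The replicate block changed no call. Of 440 summed levels under an alternative, 13 moved by more than the spread between replicates. Without the most abundant member, 5 log2 differences moved, to -0.85 for the hippocampal, -0.15 for the newly formed oligodendrocyte, 0.12 for the IL-17, 0.11 for the chemokine and -0.41 for the complement list. With library totals alone 8 moved, to -0.24 for the astrocyte, -0.22 for the activated microglial, 0.048 for the cholesterol synthesis, -0.095 for the fatty acid synthesis, -0.067 for the heat shock, 0.11 for the hypoxia and glycolysis, -0.17 for the OPC panel and -0.00261 for the premyelinating panel genes. Among these, the chemokine, cholesterol synthesis, hypoxia and complement sums changed sign, from -0.21, -0.11, -0.042 and 0.056. Of the list medians 4 moved, that of the nuclear RNAs to -0.97 without animal 676 and that of the interferon list (-1.42) to 0.52 without the filter, 0.45 without animal 489 and -0.15 without animal 516. The erythroid sum turned to 0.065 without its most abundant member. Cd180 turned from -1.32 to 3.24 with limma voom and 3.08 with the replicate block, and ranged from -2.22 to 7.01 with animals left out, turning to 7.01 without animal 489, which holds 497 of its CFD counts. Itgb4 ranged from -2.42 to 0.41, turning to 0.41 without animal 555. The log2 fold changes of 106 genes were compared under the alternatives, and all but Cd180 and Itgb4 kept their direction. Named genes outside this set, among them Snap25, Camk2a, Fos and Gfap, were not compared. Precision was limited by level, the 95% interval of a log2 fold change reaching a median of 3.87 to either side in the 2683 least and 0.677 in the 2682 most abundant genes, and by 3 animals per diet.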

Other observations

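Without a filter on low counts, genes with the smallest p included several that were high in 1 CFD library. Tbc1d16, a Rab GTPase-activating protein, had 422, 13878 and 966 counts in CFD and 485, 1048 and 577 counts in HFD. Unc45b, a myosin chaperone of muscle, had 0, 1505 and 0 counts in CFD and 0 counts in every HFD input. Nnat, an imprinted gene of developing neurons, had 5437, 36174 and 6299 counts in CFD and 7389, 6720 and 4293 counts in HFD. In all 3 genes the CFD input of animal 555 stood far above the rest. The same library held 47 genes at more than 10 times the level of any other input, against 13 to 17 in the other 5 libraries.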
